A study of Mus musculus with 6 samples.

Results

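Homing receptors and integrins are the surface proteins by which a T cell leaves the blood, stays in a tissue or goes back into lymph. The genes described here are S1pr1, Ccr7, Cxcr3, Cxcr4, Itgae, Itga4, Itgb7 and Cd44. They were chosen by gene name, 8 rows of the 54532 in the expression table, and all 8 were among the 12654 genes measured highly enough to be tested.

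RNA was sequenced from mouse CD8 T cells, the cytotoxic lineage, purified from spleen and lymph nodes and activated in culture for 3 days with beads carrying antibodies to CD3 and CD28. These antibodies stand in for antigen and costimulation. There were 3 libraries labelled wild type (WT) for Ptpmt1 and 3 labelled as Ptpmt1 knockout (KO), and both groups received the same activation. Ptpmt1 encodes a phosphatase of mitochondria that takes part in making cardiolipin, and by its title the study asks how such cells expand and differentiate. Strain, age, the deleted exons, any Cre driver and whether each library came from a separate mouse are not stated in the labels. The p-values therefore measure the spread between these libraries, which may be partly technical.

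A naive T cell carries CCR7, which follows the chemokines CCL19 and CCL21 into lymph nodes, and S1PR1, which senses sphingosine 1-phosphate and lets the cell out again. After activation both are usually reduced, and receptors for inflamed tissue such as CXCR3 appear. Integrins are pairs of an alpha and a beta chain: alpha 4 with beta 7 binds MAdCAM-1 of gut vessels, alpha E with beta 7 binds E-cadherin of epithelium, and alpha 4 with beta 1 binds VCAM-1.

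Some libraries stood apart from the others of their group. KO replicate 3 had 0 reads of Xist and 1837 of the Y-linked Ddx3y, while in each of the other 5 Xist had 3513 reads or more and Ddx3y had 0. It also had the highest summed FPKM of 10 macrophage, monocyte and dendritic cell markers, 98.5, with WT replicate 3 next at 53.1 and 9.83 to 20.9 in the remaining libraries. Markers of gamma-delta T cells summed to 174.9 in KO replicate 3, 54.2 in WT replicate 3, 64.3 in KO replicate 2 and 26.8 to 29.7 elsewhere. In KO replicate 2 the sum came mostly from the gamma constant genes Tcrg-C1, Tcrg-C2 and Tcrg-C4, at 11.5, 18.2 and 30.7 FPKM. The delta constant gene Trdc was at 3.79 FPKM in KO replicate 2, 22.2 in KO replicate 3, 7.90 in WT replicate 3 and 1.51 to 3.92 elsewhere. In KO replicate 2, mitochondrial transcripts made up 7.53% of the library (2.38% to 4.76% in the others) and ribosomal protein transcripts 19.0% (10.9% to 15.2%). All 14 genes of a CD8 T cell identity list were measured, while Cd4 was at 0 to 1.86 FPKM. Of these 14, 12 had a lower estimate in KO, with a median log2 fold change of -0.30, and 4 (Cd8a, Cd3e, Trac and Cd2) were lower at an unadjusted p under 0.05 in limma. Cd8a was at 182, 196 and 219 FPKM in WT, against 135, 109 and 145 in KO (log2 fold change -0.62, limma adjusted p = 0.149). Ptpmt1 itself was at 3.75, 3.84 and 4.13 FPKM in WT, against 1.0004, 1.58 and 1.504 in KO, with a limma adjusted p of 0.0884.

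Each of the 8 genes had a lower mean in KO than in WT, but no difference passed the threshold over all genes. Limma called 0 of the 8 at an adjusted p under 0.05, where it called 0.0395% of all tested genes. At an unadjusted p under 0.05 limma gave 2 of the 8, S1pr1 and Itgb7, both lower in KO, where 10.2% of tested genes were lower at that level. Limma-voom on rebuilt reads also called 0, with the same count of 2 at the unadjusted level. S1pr1 and Itgb7 were also the only members whose WT and KO values did not overlap, which held in this direction for 13.3% of tested genes. The estimate was below 0 for 8 of 8 members, for 12 of the 14 CD8 T cell identity genes and for 47.6% of tested genes; the part of the identity genes in the members' values was not tested. The median log2 fold change was -0.49 for the members and 0.03 for all tested genes. In these bulk libraries, fewer cells carrying a transcript and less transcript per cell cannot be told apart.

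**Figure D1:**
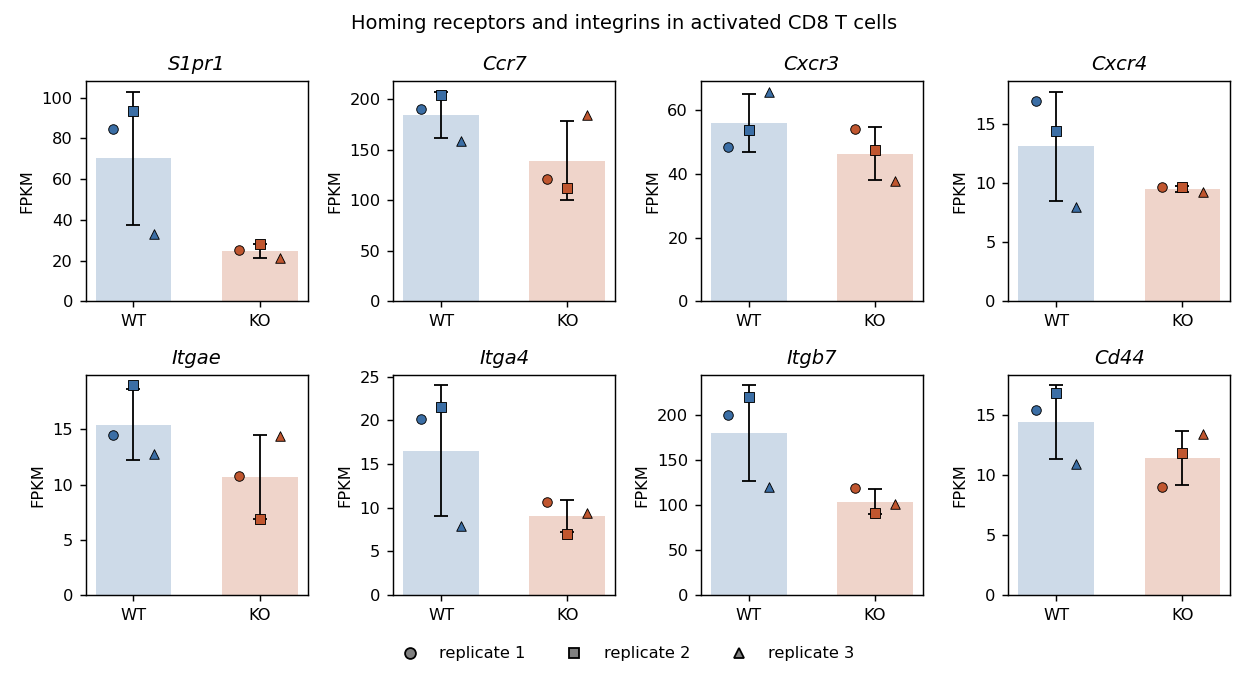
FPKM of each of the 8 genes (y axis, starting at 0) in WT and KO. Points are libraries, with the replicate shown by the symbol, bars are group means and error bars are SD of 3 libraries. The WT replicate 3 triangle lies below the other WT points in every panel but Cxcr3.

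WT replicate 3 had the lowest WT value for 7 of the 8 genes, all but Cxcr3, where 40.2% of tested genes had it lowest. On the log scale it also lay nearer to the KO mean than to the mean of WT replicates 1 and 2 for these 7 genes, as it did for 44.9% of tested genes. KO replicate 2, the library with the highest mitochondrial share, was the lowest KO library for Ccr7, Itgb7, Itga4 and Itgae, and the part of that share was not tested. A difference between KO and WT depended on WT replicate 3 more for some members than for others, and estimates without it are plotted for all 8 and stated for those it moved most.

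By FPKM, which is per gene length, the genes fell into 3 levels. Ccr7 and Itgb7 were the highest, with WT means of 184 and 180.2 and ranks of 318 and 359 by mean among the tested genes. S1pr1 and Cxcr3 followed, with WT means of 70.3 and 56.0. Itga4, Itgae, Cd44 and Cxcr4 had WT means of 16.5, 15.4, 14.4 and 13.1. No value of a lower level reached one of a higher level within either group. Inside a level the values of neighbouring genes overlapped, with 1 exception: in KO, Cxcr3 (37.6 to 54.1) lay above S1pr1 (21.3 to 28.2), whereas in WT the same genes overlapped.

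S1pr1 encodes the receptor for sphingosine 1-phosphate that guides T cells out of lymph nodes (ENSMUSG00000045092, mm10 chromosome 3, 115710433 to 115715072, minus strand). In replicate order, 84.6, 93.4 and 32.9 FPKM were measured for WT, against 25.1, 28.2 and 21.3 for KO. WT replicates 1 and 2 were high, whereas WT replicate 3 lay close above the KO values. The means were 70.3 ± 32.7 in WT and 24.9 ± 3.49 in KO (SD, n = 3 each), a ratio of 2.83. This was -1.35 as a log2 fold change (SE 0.395, 95% interval -2.29 to -0.42, limma adjusted p = 0.134). An exact permutation over the 6 libraries (2-sided) gave p = 0.1, and no smaller p is possible with 3 in each group. Without WT replicate 3 the log2 fold change was -1.83 (limma adjusted p = 0.0630), and without WT replicate 2 it was -1.08 (limma adjusted p = 0.467).

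Ccr7 encodes the lymph node entry receptor (ENSMUSG00000037944, chromosome 11, 99144196 to 99155077, minus strand). The WT values were 191, 204 and 159 FPKM, and the KO values were 121, 112 and 184. KO replicate 3 lay inside the WT range, and the other KO libraries lay below it. The means were 184 ± 23.1 and 139 ± 39.2 (SD, n = 3 each), with a log2 fold change of -0.43 (SE 0.243, limma adjusted p = 0.340). Without KO replicate 3 the log2 fold change was -0.65, with a limma adjusted p of 0.0552, and without KO replicate 2 it was -0.29 (0.558). KO replicate 3 also carried the highest sums of macrophage, monocyte and dendritic cell markers and of gamma-delta markers. The part of these in its Ccr7 value was not tested.

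Cxcr3 encodes the receptor for CXCL9 and CXCL10, which draws effector T cells into inflamed tissue (ENSMUSG00000050232, chromosome X, 101731535 to 101734269, minus strand). WT libraries held 48.3, 53.8 and 65.9 FPKM, against 54.1, 47.5 and 37.6 in the KO libraries. The groups overlapped, and WT replicate 3 was the highest library and KO replicate 3 the lowest. The means were 56.0 ± 8.99 and 46.4 ± 8.26 (SD, n = 3 each). Its log2 fold change of -0.27 (SE 0.205, limma adjusted p = 0.471) was the smallest of the 8. It was -0.15 without WT replicate 3, -0.13 without KO replicate 3 and -0.01 when both of these libraries were left out, so the estimate rested on them. Cxcr3 is X-linked, and KO replicate 3 was the library without Xist reads; the part of this difference in the value was not tested.

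Cxcr4 encodes the receptor for CXCL12, a chemokine of bone marrow and lymphoid stroma (ENSMUSG00000045382, chromosome 1, 128588199 to 128592293, minus strand). In replicate order, 16.9, 14.4 and 7.97 FPKM were measured for WT, against 9.63, 9.69 and 9.22 for KO. WT replicate 3 lay below all 3 KO libraries, which differed little among themselves. The means were 13.1 ± 4.62 and 9.52 ± 0.254 (SD, n = 3 each). The difference was -0.38 as a log2 fold change (SE 0.274, limma adjusted p = 0.454) with all libraries and -0.69 without WT replicate 3 (limma adjusted p = 0.0957). It was -0.17 without WT replicate 1 (limma adjusted p = 0.802). Cxcr4 had the fewest reads of the 8 genes, 230 to 501 per library.

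Itgb7 encodes the beta 7 chain, shared by the integrins for gut vessels and for epithelium (ENSMUSG00000001281, chromosome 15, 102215995 to 102231944, minus strand). The WT values were 199.9, 220.4 and 120.3 FPKM, and the KO values were 118, 90.8 and 102. All WT libraries exceeded all KO libraries, but WT replicate 3 exceeded KO replicate 1 only narrowly. The means were 180.2 ± 52.9 and 104 ± 14.0 (SD, n = 3 each), a ratio of 1.74. This was -0.76 as a log2 fold change (SE 0.269, 95% interval -1.39 to -0.12, limma adjusted p = 0.176), with an exact permutation p = 0.1. Without WT replicate 3 it was -1.02 (limma adjusted p = 0.0781), and without WT replicate 2 it was -0.59 (limma adjusted p = 0.520).

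Itga4 encodes the alpha 4 chain, the partner of both beta 7 and beta 1 (ENSMUSG00000027009, chromosome 2, 79255426 to 79333123, plus strand). WT libraries held 20.1, 21.5 and 7.95 FPKM, against 10.7, 7.04 and 9.34 in the KO libraries. WT replicate 3 lay within the KO range, so the groups overlapped through that library alone. The means were 16.5 ± 7.46 and 9.01 ± 1.83 (SD, n = 3 each), and their difference was -0.74 as a log2 fold change (SE 0.383, limma adjusted p = 0.307) with all libraries and -1.18 without WT replicate 3 (limma adjusted p = 0.0700). It was -0.49 without WT replicate 2 (limma adjusted p = 0.670). The end of Itga4 overlaps Cerkl on the other strand, which reached at most 1.28 FPKM.

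The 250 bases before the RefSeq starts of Itga4 and Itgb7 are shown because these genes encode the 2 chains of the gut-homing integrin and were the integrin members with the largest differences. RefSeq promoters (GRCm38.p6) were matched for 5 of the 8 members, Cd44, Cxcr3, Cxcr4, Itga4 and Itgb7. The windows are chr2:79255176-79255425 on the plus strand for Itga4 and chr15:102231936-102232185 on the minus strand for Itgb7. Capitals mark CACCC and its reverse GGGTG, which are each other on the opposite strand, the core letters read by Krüppel-like factors such as KLF2.
Itga4: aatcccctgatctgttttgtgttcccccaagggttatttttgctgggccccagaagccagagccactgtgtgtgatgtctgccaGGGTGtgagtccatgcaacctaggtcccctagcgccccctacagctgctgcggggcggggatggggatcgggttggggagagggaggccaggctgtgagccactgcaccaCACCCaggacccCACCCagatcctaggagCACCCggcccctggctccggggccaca
Itgb7: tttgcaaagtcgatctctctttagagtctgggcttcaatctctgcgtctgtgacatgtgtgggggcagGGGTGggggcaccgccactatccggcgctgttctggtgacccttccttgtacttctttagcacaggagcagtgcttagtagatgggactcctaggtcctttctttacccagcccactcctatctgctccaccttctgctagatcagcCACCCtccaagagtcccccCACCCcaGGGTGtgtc
Each window held 4 matches over both strands, Cxcr4 held 1 and Cd44 and Cxcr3 held 0. Of all 32851 promoter windows of this length, 52.0% held at least 1 match and 2.14% held at least 4. G and C made up 64% of the Itga4 window and 56% of the Itgb7 window, beside a median of 52.4% over all promoters. The shares are not adjusted for this. The FOXO letters GTAAACA, with their reverse TGTTTAC, were in none of the 5 windows and in 3.17% of all. A match is only a run of letters, and no binding was measured.

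Itgae encodes the alpha E chain, CD103, which holds T cells in epithelium (ENSMUSG00000005947, chromosome 11, 73090583 to 73147446, plus strand). In replicate order, 14.5, 19.0 and 12.8 FPKM were measured for WT, against 10.8, 6.85 and 14.4 for KO. KO replicate 3 lay within the WT range. The means were 15.4 ± 3.20 and 10.7 ± 3.78 (SD, n = 3 each). KO minus WT was -0.55 as a log2 fold change (SE 0.288, limma adjusted p = 0.309) and -0.79 without KO replicate 3 (limma adjusted p = 0.0855). It was -0.28 without KO replicate 2 (limma adjusted p = 0.559). Haspin, a mitotic kinase gene, lies inside Itgae on the other strand, at a mean of 9.18 FPKM in WT and 10.1 in KO. Because the strand setting of the counting is not given in the sources used here, reads of the 2 genes cannot be told apart with certainty.

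Cd44 encodes the hyaluronan receptor that marks activated and memory T cells (ENSMUSG00000005087, chromosome 2, 102811141 to 102901665, minus strand). The WT values were 15.4, 16.8 and 10.9 FPKM, and the KO values were 9.02, 11.8 and 13.4. WT replicate 3 lay below 2 of the KO libraries, and the groups overlapped. Mean FPKM was 14.4 ± 3.06 and 11.4 ± 2.22 (SD, n = 3 each). KO minus WT was -0.32 as a log2 fold change (SE 0.226, 95% interval -0.85 to 0.22, limma adjusted p = 0.446), with -0.50 without WT replicate 3, -0.20 without WT replicate 2 and -0.16 without KO replicate 1. The table gives 1 value per gene, so splice forms of Cd44 are not separated.

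**Figure D2:**
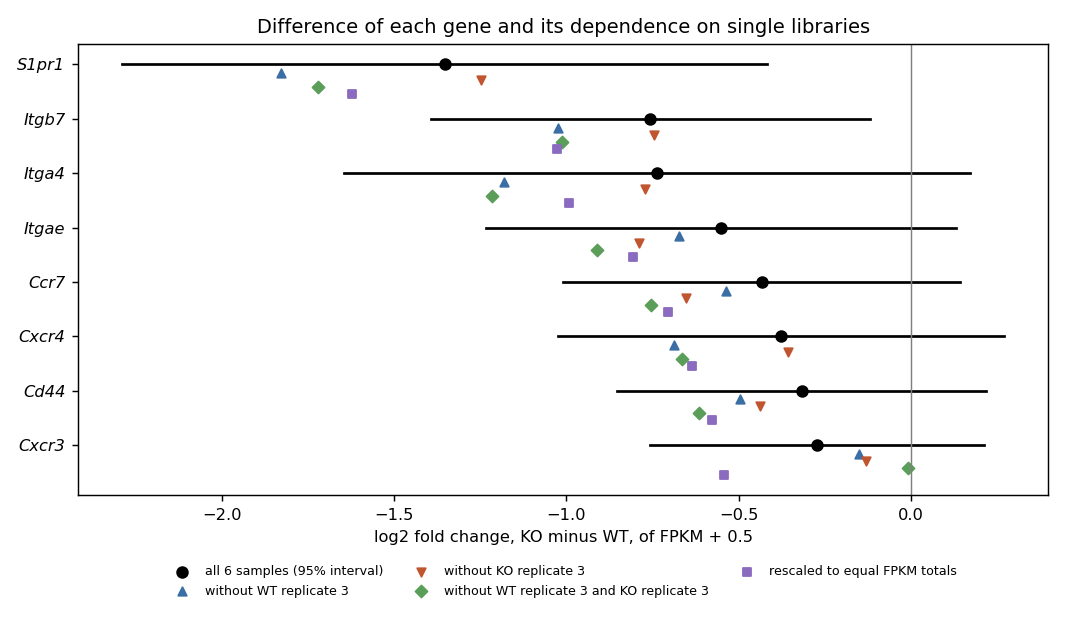
Log2 fold change of each gene on the scale of FPKM + 0.5 (x axis, KO minus WT). Black points with lines are the estimates and 95% intervals from all 6 libraries, and coloured symbols are estimates without the named libraries or after rescaling. Only the intervals of S1pr1 and Itgb7 lie below 0, and without WT replicate 3 the estimates of all genes but Cxcr3 move away from 0.

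With WT replicate 3 and KO replicate 3 both left out, the 2 libraries with the highest macrophage and dendritic cell markers, limma called 5 of the 8 genes, all lower in KO. These were S1pr1 (-1.72 on the log2 scale), Itga4 (-1.22), Itgb7 (-1.01), Ccr7 (-0.76) and Cxcr4 (-0.67), with limma adjusted p between 0.0334 and 0.0487. In the same fit 14.7% of all tested genes were called, and 6.32% were called as lower. This setting was chosen after the values were seen and leaves 2 libraries a group, and WT replicate 3 was the lowest WT library for all 5 of these genes. Without KO replicate 3 alone, 0 of the 8 were called and 13.7% of all tested genes were, while 4 members (S1pr1, Itgb7, Ccr7 and Itgae) were lower at an unadjusted p under 0.05, against 15.5% of tested genes. Without WT replicate 3 alone, 0 of the 8 were called and 0.0158% of all genes were, while 4 members (S1pr1, Itga4, Itgb7 and Cxcr4) were lower at an unadjusted p under 0.05, against 10.4% of tested genes lower at that level. The other leave-outs gave fewer: the count was 1, S1pr1, without WT replicate 1, WT replicate 2 or KO replicate 2, and 2 if KO replicate 1 was dropped. For these leave-outs the share of all tested genes at that level is not given, so the lower counts cannot be read as particular to the members. With library weights estimated by limma 7 of the 8 were called, in a fit that called 53% of all tested genes. With libraries rescaled to equal FPKM totals 3 of the 8 were lower and 0 higher at the unadjusted level, against 12.9% of tested genes lower and 3.83% higher.

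The integrin chains were then set beside each other. Itgb1, the beta 1 chain that competes with beta 7 for alpha 4, had values of 75.9, 64.7 and 69.9 FPKM in WT, against 117, 170.3 and 91.1 in KO. Every KO library exceeded every WT library, which held for 1837 of the 12654 tested genes. The estimate was 0.80 as a log2 fold change (SE 0.252, limma adjusted p = 0.151). The FPKM ratio of Itgb1 to Itgb7 was 0.380, 0.293 and 0.581 in WT, against 0.990, 1.88 and 0.897 in KO. Its mean was 0.418 ± 0.148 in WT and 1.25 ± 0.541 in KO (SD, n = 3 each), 1.56 higher in KO on the log2 scale. The groups did not overlap, with an exact permutation p = 0.1, again the lowest possible. This ratio was chosen after the values were seen. The ratio of Itgb7 to Itga4, in contrast, was 11.8 ± 2.92 in WT and 11.6 ± 1.10 in KO (SD, n = 3 each; exact permutation p = 1), with WT replicate 3 the highest at 15.1. A ratio within a library shows unequal change and does not say which chain changed.

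The leukocyte integrin LFA-1, which T cells use to adhere to ICAM-1, is made of Itgal and Itgb2. Itgal had a WT mean of 73.3 ± 5.96 FPKM and a KO mean of 50.9 ± 17.6, and Itgb2 had 99.9 ± 9.56 and 72.8 ± 21.7 (SD, n = 3 each). Their log2 fold changes of -0.57 and -0.49 had limma adjusted p of 0.251 and 0.278, and became -0.83 and -0.72 without KO replicate 3 (0.0375 and 0.0400). That fit called 13.7% of all tested genes. With any other single library left out, limma called 0 integrin subunits. Of the 11 other integrin subunits tested, of 23 listed, Itga6 was lower and Itgb1 higher at an unadjusted p under 0.05, beside 10.2% lower and 11.5% higher among all tested genes. Without WT replicate 2 Itgb1 no longer reached that level. Itga6, the alpha 6 chain of a laminin receptor, had 11.5, 11.4 and 7.95 FPKM in WT, against 4.62, 4.75 and 5.61 in KO (log2 fold change -0.96, SE 0.193, limma adjusted p = 0.0954). Without KO replicate 3, in the fit that called 13.7% of all tested genes, its limma adjusted p was 0.0360.

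**Figure D3:**
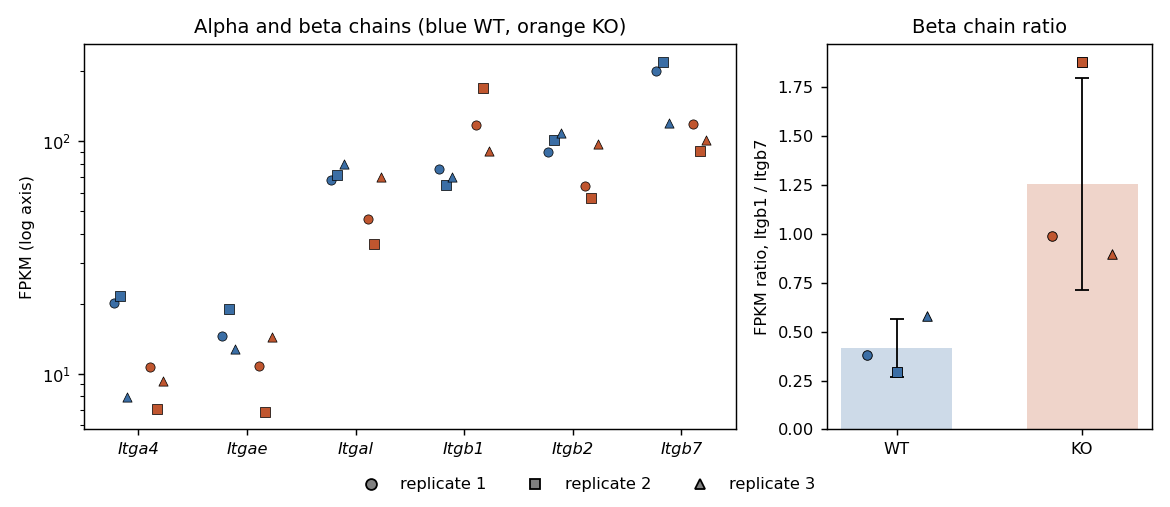
Left, FPKM on a log axis of alpha chains (Itga4, Itgae, Itgal) and beta chains (Itgb1, Itgb2, Itgb7) in each library. Right, the FPKM ratio of Itgb1 to Itgb7, with group means as bars and SD of 3 libraries as error bars; symbols mark the replicates. The 3 KO ratios, 0.897 to 1.88, all exceed the 3 WT ratios, 0.293 to 0.581.

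The other genes of the homing pathways comprised 149 genes in 8 lists of receptors, ligands, signalling genes and regulators. Of these, 102 were tested, limma called 0, and 27 were lower and 3 higher in KO at an unadjusted p under 0.05. Among all tested genes 10.2% were lower and 11.5% higher at that level. The median log2 fold change of the 102 was -0.25, beside 0.03 for all tested genes. The 27 became 13 without WT replicate 1, 10 without WT replicate 2, 12 without KO replicate 1 and 18 without KO replicate 2. For these leave-outs, here and in the lists below, the share of all tested genes at the unadjusted level is not given. A fall in a count can therefore not be read as particular to a list. Without KO replicate 3, 24 were called, where 13.7% of tested genes were. At the unadjusted level 41 were then lower, where 15.5% of tested genes were, and 7 were higher, for which that share is not given. With libraries rescaled to equal totals, 29 were lower and 1 higher, where 12.9% of tested genes were lower and 3.83% higher.

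Few ligands of the 8 proteins were measured. Of 11 listed ligands, 2 were tested, and Cxcl12, Ccl19, Ccl21a and Madcam1 had 0 reads in all 6 libraries. For Cxcl12, the ligand of CXCR4, 3 reads would amount to at most 0.0280 FPKM in any library, a limit that covers counting error only. Cxcl10 had 0.461, 0.752 and 3.67 FPKM in WT, against 0.903, 2.50 and 7.26 in KO, and Cxcl9 had 0.142, 0.0648 and 0.774 in WT, against 0.821, 0.177 and 4.87 in KO. Both CXCR3 ligands were highest in KO replicate 3, and the groups overlapped. Cdh1, which encodes E-cadherin, was below the filter, at 0.0569 to 0.498 FPKM in WT and 0.0694 to 1.76 in KO.

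Among the 7 other chemokine receptors tested, of 19 listed, 2 were lower and 1 higher in KO at an unadjusted p under 0.05, beside 10.2% lower and 11.5% higher among all tested genes. The 2 became 1 without WT replicate 1, WT replicate 2, KO replicate 1 or KO replicate 2. Cxcr5, which guides cells to B cell follicles, had a WT mean of 13.5 ± 1.67 FPKM and a KO mean of 6.47 ± 2.63 (SD, n = 3 each; log2 fold change -1.08, SE 0.320, limma adjusted p = 0.136). Ccr9, the receptor for homing to the small intestine, had 9.12 ± 1.71 and 5.04 ± 2.27 FPKM, and KO replicate 3, at 7.52, overlapped WT. Ccr4, a receptor of skin-homing cells, was the 1 higher, with 1.66, 0.758 and 2.93 FPKM in WT, against 4.42, 2.24 and 10.3 in KO. Their limma adjusted p were 0.182 and 0.229. When WT replicate 1, WT replicate 2, KO replicate 1 or KO replicate 3 was left out, Ccr4 missed the unadjusted level, as it did with a pseudocount of 1, with no filter, after either rescaling and without the variance trend.

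Of the other sphingosine 1-phosphate genes, 7 of 14 were tested and 0 differed at an unadjusted p under 0.05 in limma. S1pr4, a second receptor for the lipid, had 68.7, 80.7 and 37.9 FPKM in WT, against 38.8, 44.0 and 26.5 in KO (log2 fold change -0.73, limma adjusted p = 0.251). As for S1pr1, WT replicate 3 was the low WT library, and here it lay within the KO range. Cd69, whose protein binds S1PR1 and removes it from the surface, had 20.3 ± 1.58 and 17.0 ± 3.81 FPKM (SD, n = 3 each; log2 fold change -0.27, limma adjusted p = 0.453).

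Selplg, which encodes the P-selectin ligand PSGL-1, had 103, 124 and 101.01 FPKM in WT, against 65.9, 60.5 and 79.5 in KO. These groups did not overlap, which held in this direction for 13.3% of all tested genes (log2 fold change -0.67, SE 0.184, limma adjusted p = 0.124). Of the 9 other tested genes of the selectin and CD44 list, of 14 listed, Selplg and the sialomucin gene Spn were lower and the sialyltransferase gene St3gal4 higher at an unadjusted p under 0.05, beside 10.2% lower and 11.5% higher among all tested genes. The 2 lower became 1 without WT replicate 1, WT replicate 2 or KO replicate 1. The 1 higher became 0 when any 1 of these libraries or KO replicate 2 was left out, after rescaling to equal totals, without the variance trend, in limma-voom and with the replicate number in the fit. Spn had 93.4 ± 19.7 and 63.6 ± 4.91 FPKM and St3gal4 had 11.7 ± 1.61 and 15.3 ± 0.479 (SD, n = 3 each).

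Genes that act between receptor and integrin form the next list. Of 17 integrin activation genes tested, 5 were lower and 0 higher at an unadjusted p under 0.05, beside 10.2% lower and 11.5% higher among all tested genes. Tln1, the talin that pulls integrins into their active form, had 47.9, 51.0 and 53.3 FPKM in WT, against 27.6, 18.9 and 42.2 in KO (log2 fold change -0.84, SE 0.285, limma adjusted p = 0.164). The adaptor genes Apbb1ip and Fyb and the Rap1 inhibitor gene Sipa1 had log2 fold changes of -0.63, -0.79 and -0.55. Without WT replicate 2 the count of 5 became 0, without KO replicate 1 it became 1 and without KO replicate 2 it was 2. Without WT replicate 3 it became 1, where 10.4% of all tested genes were lower. Without KO replicate 3 it was 8, where 15.5% of all tested genes were lower, and 3 genes of the list were then higher. The share of all tested genes that were higher in that fit is not given.

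Of 30 genes of receptor signalling and migration, 10 were lower and 0 higher at an unadjusted p under 0.05, beside 10.2% lower and 11.5% higher among all tested genes. Dock2, the Rac activator of lymphocyte migration, had 38.2, 39.9 and 30.1 FPKM in WT, against 12.6, 10.3 and 20.0 in KO (log2 fold change -1.35, SE 0.263, limma adjusted p = 0.0921). Arhgap45 had 200.5, 232.7 and 171 FPKM in WT, against 99.8, 88.0 and 92.9 in KO (log2 fold change -1.09, SE 0.186, limma adjusted p = 0.0884). Neither gene's groups overlapped, which held in this direction for 13.3% of all tested genes. Without KO replicate 3 both had a limma adjusted p of 0.0344, in a fit that called 13.7% of all tested genes. With any other single library left out, 0 genes of this list were called. Grk2 and Grk6, kinases that switch off chemokine receptors, had log2 fold changes of -0.60 and -0.67. Without WT replicate 1 the count of 10 became 4, and without WT replicate 2 or KO replicate 1 it became 5.

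Transcription factors and cytokine signals known to set homing genes made up the last list, with 7 of 19 lower and 0 higher at an unadjusted p under 0.05, beside 10.2% lower and 11.5% higher among all tested genes. Klf2, which drives S1pr1 in resting T cells, had 92.2, 99.4 and 43.2 FPKM in WT, against 38.3, 35.3 and 33.1 in KO (log2 fold change -1.04, SE 0.324, limma adjusted p = 0.150). WT replicate 3 again lay between the other WT libraries and KO. Foxo1, which acts upstream of Klf2, had 13.1, 13.6 and 9.24 FPKM in WT, against 7.62, 6.60 and 7.64 in KO, and Klf3 had 13.1, 14.1 and 7.12 in WT, against 4.47, 5.12 and 6.24 in KO. Tgfbr2, the TGF-beta receptor through which Itgae is induced, had 19.6 ± 2.31 and 12.0 ± 4.74 FPKM (SD, n = 3 each), with KO replicate 3 at 17.5 inside the WT range. Limma adjusted p of these 3 genes were 0.131, 0.128 and 0.184. The count of 7 became 2 without WT replicate 1 or 2, 3 without KO replicate 1 or 2 and 11 without KO replicate 3, where 15.5% of all tested genes were lower.

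**Figure D4:**
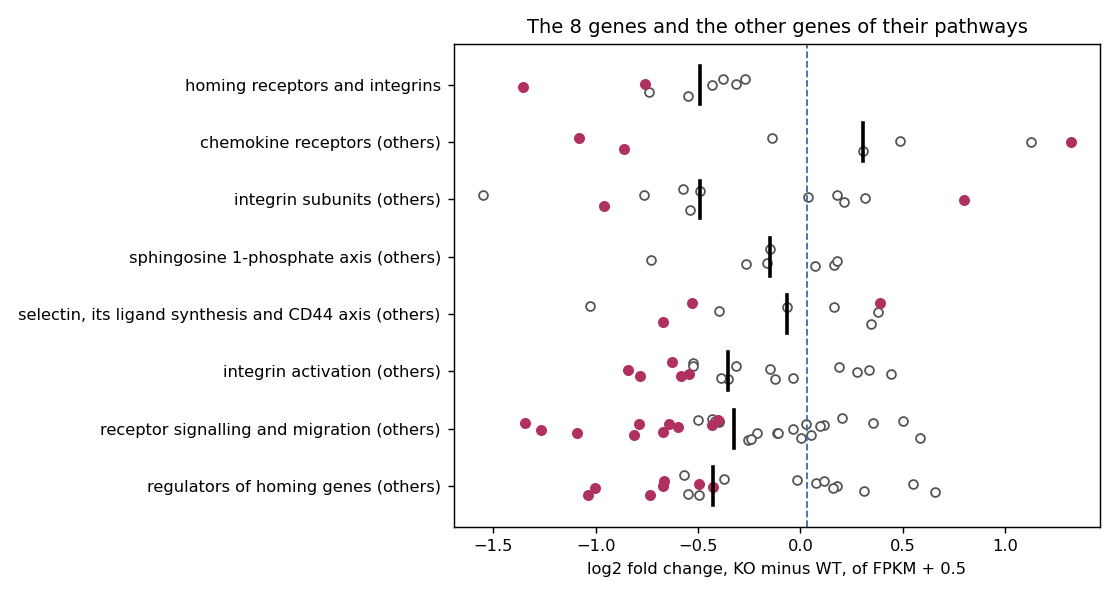
Log2 fold change (x axis, KO minus WT) of the 8 genes in the top row and of the other tested genes of each list, 1 point a gene. Filled points have an unadjusted limma p under 0.05, black bars are the medians of the drawn genes and the dashed line is the median of all tested genes, 0.03. The migration row holds 10 filled points, all below 0.

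Both Itga4 and Cd44 lie on chromosome 2, as does Ptpmt1, at distances of 11.6 and 11.9 Mb from it on opposite sides. Within the larger distance 86 genes were tested besides Ptpmt1, with Itga4 and Cd44 among them. Limma called 0 of the 86, and 25.6% had an unadjusted p under 0.05 against 21.8% of all tested genes. The median log2 fold change of the 86 was 0.01.

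Genes with the most similar profile over the 6 libraries were listed among 6407 other protein-coding genes with a mean of at least 5 FPKM. With so few libraries many genes reach a high value, and a correlation above 0.95 was found for 137 genes with S1pr1 but for only 2 with Cxcr3. The nearest to S1pr1 were Pou2af1 (Pearson r 0.998) and Spata6 (0.998), and to Ccr7 Notch2 (0.997) and Rest (0.997). Itgb7 was nearest to Cep68 (0.990) and Abtb1 (0.989), Itga4 to Sun1 (0.987) and Kdm5a (0.984), and Itgae to Copa (0.992) and Npepps (0.992). Cxcr4 was nearest to Zfp292 (0.994) and Sp1 (0.989), Cd44 to Tsc22d3 (0.984) and Ift52 (0.969), and Cxcr3 to Ptprcap (0.968) and Hes6 (0.966). These are descriptions over 6 libraries, whose group, depth and cell makeup all genes share.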

How the data were processed

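RNA sequencing libraries of 3 WT and 3 KO samples were compared. The authors deposited 1 FPKM value per gene and sample, with a gene length column in bases, and per the submitters' processing notes the tools named are DESeq2, featureCounts 1.5.0-p3, HISAT2 2.0.5 and Trim Galore on build mm10, without their roles. Libraries were stranded mRNA, per the labels' protocols. Reads were rebuilt from the steps of FPKM times length (at least 99.99% of values whole within 0.05) and totalled 14932604 to 16819913 a library. The 8 genes had 230 to 9376 reads each. Positions are from GENCODE M21.

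Values were tested as log2(FPKM + 0.5) for genes with a mean of at least 0.5, with limma 3.58.1 in R 4.3.3 (mean-variance trend, 2-sided, genotype only), and p was adjusted by Benjamini-Hochberg over all 12654 genes. Folds on this scale understate changes of low genes. The fit was tested on simulated data with known changes, drawn with the same dispersion for all genes and no outlying libraries. That test therefore does not show how the fit performs on these libraries. KO columns carry the gene's name and the sample's number.

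Members and lists were chosen with earlier results of these data known. From each list up to 4 genes of smallest unadjusted p under 0.05, or else the 2 highest, were named, plus direct partners (S1pr4, Cd69, Klf2, Foxo1, Itgb1, Itgb2, Itgal, Cxcl12 and Cdh1, with 1 further partner not reported here). Alternatives covered the pseudocount, filter, scaling, variance model, rebuilt reads, a replicate block and left-out libraries. Python 3.11.15, pandas 2.3.3 and matplotlib 3.10.9 made tables and plots.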

Additional observations from a re-analysis of the deposited data

How the results depend on the processing

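The 8 genes kept a negative estimate in all alternatives run except Cxcr3 with array weights, where its log2 fold change was 0.027. No member was called under another pseudocount, filter or scaling, without the variance trend, in limma-voom, with the replicate block or with any single library left out. With 1 library left out the log2 fold changes ranged from -1.83 to -1.08 for S1pr1, -1.18 to -0.49 for Itga4, -1.02 to -0.59 for Itgb7, -0.79 to -0.28 for Itgae, -0.69 to -0.17 for Cxcr4, -0.65 to -0.29 for Ccr7, -0.50 to -0.16 for Cd44 and -0.39 to -0.13 for Cxcr3. With array weights, estimated gene by gene (chosen after seeing the data, since the default estimate did not converge), 7 members and 6710 genes (53% of those tested) were called. The members' log2 fold changes were then -1.71 for S1pr1, -0.86 for Itga4, -0.79 for Itgb7, -0.74 for Cd44, -0.67 for Ccr7, -0.62 for Itgae and -0.58 for Cxcr4. That fit gave KO replicate 1 a weight of 9.10 and the other KO libraries 0.355 and 0.192, so it rested largely on 1 KO library. Without both replicates 3, also chosen after seeing the data, 5 members were called (S1pr1 -1.72, Itga4 -1.22, Itgb7 -1.01, Ccr7 -0.76, Cxcr4 -0.67) among 1863 genes.

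Across the transcriptome, 5 genes were called with all libraries. The count was 3 with a pseudocount of 1 or no filter, 14 without the variance trend, 1 in limma-voom, and from 2 to 1733 with 1 library left out, the highest without KO replicate 3. Rescaling to equal FPKM totals moved the median of all tested genes, as a log2 fold change, from 0.03 to -0.20 and that of the members from -0.49 to -0.76. It also changed the genes with an unadjusted p under 0.05 from 1459 higher and 1297 lower to 485 higher and 1630 lower. With the replicate number as a replicate block, 12 genes and 0 members were called. Same-numbered libraries deviated together with correlations of 0.13, 0.07 and 0.33, and 3 of 6 libraries correlated best with their own number, so the numbers were not taken to pair the samples. With 3 libraries a group no exact test can go below 0.1, and the cause of the changes between settings was not tested.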

Other observations

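Some receptors and factors outside the 8 genes varied widely between libraries of a group. They were chosen after their values were seen and are given as values. Ccr2, a receptor of inflammatory homing, had 4.46, 4.65 and 2.66 FPKM in WT, against 7.18, 30.0 and 3.11 in KO replicates 1 to 3. It was highest in KO replicate 2. Ccr8 had 0.208, 0.499 and 2.23 FPKM in WT, against 0.378, 0.389 and 4.15 in KO. Tbx21, which encodes the effector factor T-bet, had 8.10, 9.68 and 20.4 FPKM in WT, against 16.0, 13.5 and 30.7 in KO, and Bhlhe40 had 2.54, 3.14 and 7.55 in WT, against 3.23, 2.83 and 22.1 in KO. These 3 genes were highest in replicate 3 within each group. Itgb3, a beta chain of the vitronectin receptor, had 11.2, 11.7 and 15.5 FPKM in WT, against 4.41, 4.67 and 17.8 in KO.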
